A study of Mus musculus with 6 samples.

Results

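The gelsolin family of actin regulators was followed in immortalized bone marrow macrophages (BMMs) that carry or lack Aif1. The members are the 8 genes Vill, Vil1, Gsn, Capg, Svil, Flii, Avil and Scin, out of 47729 genes counted, and they were taken by name from the family. The family was chosen because Vill is nearly lost in Aif1-/- cells, so the Vill difference is given as a description with no test. Of the 8 members, 7 had at least 1 count and 6 passed the filter on low counts, against 17406 genes tested in all. Avil and Scin did not pass.

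Marrow from femur and tibia of 8-week-old male C57BL/6J mice, WT or with a germline knockout of Aif1, was grown into macrophages. Both genotypes were immortalized with SV40 large T antigen, kept in α-MEM with serum and 120 ng/ml CSF-1, and used at passages 3 to 5. RNA-seq was performed on 3 WT and 3 Aif1-/- libraries from 200 ng of rRNA-depleted total RNA each. The study gives these as independent animals but does not say that each library is a separately immortalized line, so a p-value reflects how far these libraries vary, which may be technical.

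Proteins of this family bind actin through repeated gelsolin-like domains. Many sever filaments or cap their fast-growing (barbed) ends when calcium rises, and phosphatidylinositol 4,5-bisphosphate (PIP2) releases them from actin. Members of the villin branch add a small headpiece domain that also binds filaments, which lets some of them bundle actin. Macrophages are known for high levels of CapG, first described as a macrophage capping protein, and of gelsolin. AIF1 itself is a calcium-binding protein that bundles actin.

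Counts in genes ranged from 17707986 to 29314253 per library, and 25.5% (WT replicate 3) to 40.4% (WT replicate 2) of the counted reads lay outside annotated genes, against 33.6% to 35.7% in the Aif1-/- libraries. Aif1 had 220, 157 and 239 raw counts in the WT libraries and 4, 4 and 1 in the Aif1-/- libraries (log2 fold change −5.71, SE 0.38, edgeR adjusted p = 2.84e-06), as the labels give. Between the genotypes 18.6% of all tested genes were called at an adjusted p under 0.05. All 8 macrophage markers were detected in both genotypes, with a summed level of 1560 to 1910 RPKM (counts scaled to library size and to kilobases of exon) in WT and 2250 to 2290 in Aif1-/- libraries. Of these, 6 were higher in Aif1-/- cells (Csf1r, Adgre1, Itgam, Lyz2, Fcgr1 and Mertk) and 0 lower.

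The stretches just before the annotated starts of Vill, Gsn and Vil1 are shown because these genes were lost, abundant and near absent in the same cells. Each is the 250 bases before the RefSeq start, 5′ to 3′ on the + strand of GRCm38.p6, with matches to any of 4 motifs in capitals. The motifs were the TATA box (TATAAA), the PU.1 core (GAGGAA), the AP-1 site (TGANTCA) and the CArG box bound by serum response factor, each searched on both strands of the window from 250 bases before to 50 after the start. The Vill stretch is chr9:119052528-119052777, the Gsn stretch, before the first of its 3 RefSeq starts, is chr2:35256109-35256358, and the Vil1 stretch is chr1:74409134-74409383, the last 8 bases of which lie in an annotated exon.
Vill: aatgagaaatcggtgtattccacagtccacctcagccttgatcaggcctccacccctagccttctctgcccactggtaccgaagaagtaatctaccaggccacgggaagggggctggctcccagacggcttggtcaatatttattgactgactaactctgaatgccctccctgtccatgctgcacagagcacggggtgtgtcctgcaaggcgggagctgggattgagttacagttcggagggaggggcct
Gsn: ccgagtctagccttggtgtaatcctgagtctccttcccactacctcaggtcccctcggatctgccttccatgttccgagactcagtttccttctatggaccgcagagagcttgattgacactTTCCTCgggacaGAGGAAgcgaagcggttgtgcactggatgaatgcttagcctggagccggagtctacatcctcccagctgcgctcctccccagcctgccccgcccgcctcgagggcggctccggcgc
Vil1: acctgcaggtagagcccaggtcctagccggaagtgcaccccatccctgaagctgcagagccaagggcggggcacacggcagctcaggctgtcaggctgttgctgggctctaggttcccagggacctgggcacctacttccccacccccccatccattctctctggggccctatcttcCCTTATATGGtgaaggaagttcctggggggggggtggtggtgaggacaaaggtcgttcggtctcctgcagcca
The Vill window held none of the 4 motifs. The first Gsn window held 2 PU.1 cores, 1 on each strand, and the windows of its other two starts held none of the 4 motifs, and Vil1 held 1 CArG box. Among all 32817 RefSeq windows of the same length, 28.3% held a PU.1 core, 13.6% a TATA box, 7.81% an AP-1 site and 1.63% a CArG box, and none of the matches overlapped. CG dinucleotides numbered 7 in the Vill window, 20 in the first of Gsn and 5 in that of Vil1, and 47.9%, 73.5% and 38.1% of all windows held fewer. Windows of Capg, Flii and Scin also held none of the 4 motifs, and Avil held 1 PU.1 core. A match here is a run of letters and not a shown binding site.

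Vill (ENSMUSG00000038775, chr9:119052778-119071525, + strand, GRCm38) encodes a villin-like protein with the gelsolin-like repeats and headpiece of villin, whose own function is little described. Its raw counts were 2176, 2559 and 2913 in WT replicates 1 to 3 and 5, 2 and 0 in Aif1-/- replicates 1 to 3. Scaled to the same library size, these were 2188, 2171 and 2460 normalized counts in WT (mean 2273 ± 162, SD, n = 3) and 4.42, 2.66 and 0 in Aif1-/- cells (2.36 ± 2.22). Every Aif1-/- library sat far under every WT library, and the WT libraries lay close together. In bulk RNA, fewer cells with the transcript and less of it in each cell cannot be told apart.

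The counts left in Aif1-/- cells made up 0.116% of the WT level (exact 95% interval 0.0467% to 0.240%, counting error only), an 860-fold difference with an interval of 417 to 2140. The same ratio was 1.86% (0.845% to 3.55%) for Aif1, the targeted gene, so that less was left of Vill than of Aif1 in these counts. The fitted log2 fold change of Vill was −9.68 (SE 0.23). Only 3 of the 17406 tested genes, Vill included, had a fold change that low. With each library left out in turn the value lay between −9.21, without Aif1-/- replicate 3, the library with 0 counts, and −10.61, without Aif1-/- replicate 1, the library with 5. No 50-base stretch of a Vill transcript occurred in a transcript of another gene, and no annotated gene overlaps Vill.

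In WT cells Vill was a moderately abundant transcript. Its level was 21.12, 20.96 and 23.75 RPKM in the 3 WT libraries, above 84.05% of the tested genes. In Aif1-/- cells it was 0.0426, 0.0257 and 0, above 0.439% of them. That is lower than the range of Vil1 or Avil in the same libraries.

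**Figure D1:**
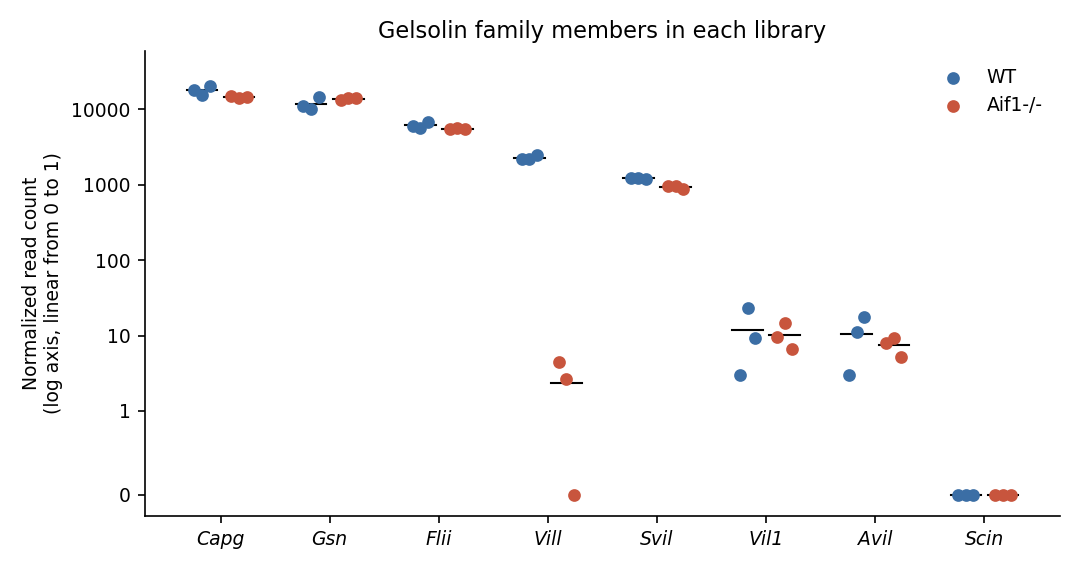
Normalized read counts (log axis, linear from 0 to 1) of the 8 gelsolin family members in the 3 WT and 3 Aif1-/- libraries, 1 point per library, with lines at the group means. Vill falls from 2171 to 2460 in WT to between 0 and 4.42 in Aif1-/- cells, while no other member shows such a gap between the genotypes.

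Villin 1 (Vil1, ENSMUSG00000026175, chr1:74409376-74435559, + strand), the bundling protein of the intestinal brush border and the closest namesake of Vill, was near absent. It had 3, 27 and 11 raw counts in the WT libraries and 11, 11 and 5 in the Aif1-/- libraries. Those are 11.7 ± 10.2 and 10.3 ± 4.07 normalized counts, and the genotypes overlapped (log2 fold change −0.22, SE 0.65, 95% interval −1.67 to 1.24, edgeR adjusted p = 0.877). That interval holds changes in both directions, so these few counts, which varied between libraries, did not settle one. Vil1 shares 49 bases of its span with Usp37 on the other strand. Reads were counted with the default settings of the counting program, which use strand, and whether they separated genes on opposite strands was not tested. Of 6 epithelial markers, Krt8, Krt18, Krt19 and Cdx2 were at 0 in every library and Epcam had 1 count, while Cdh1 had 125 raw counts in WT and 18 in Aif1-/- cells.

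Advillin (Avil, ENSMUSG00000025432, chr10:127000709-127020994, + strand) is the villin of sensory neurons and tuft cells. Its raw counts were 3, 13 and 21 in WT and 9, 7 and 4 in Aif1-/- libraries, which overlap. Along 9423 bases its span overlaps Tsfm on the other strand, and 3.48% of its 50-base stretches occur in Tsfm transcripts. Of the tuft and neuron markers, Pou2f3 and Nefl were at 0, and Dclk1 fell from 360 raw counts in WT to 1 in Aif1-/- cells. Trpm5 had 45 and 46 raw counts, and Prph had 59 and 161, with every Aif1-/- library above every WT library (log2 fold change 1.83, edgeR adjusted p = 0.114, not called). The summed level of the list was 0.461 to 1.23 RPKM in WT and 1.36 to 1.46 in Aif1-/- libraries.

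Supervillin (Svil, ENSMUSG00000024236, + strand of chromosome 18) is the largest member, a membrane-linked protein with a headpiece that ties actin to myosin II and is found at macrophage podosomes. Normalized counts were 1231, 1221 and 1210 in WT (1220.5 ± 10.3) and 963, 958 and 878 in Aif1-/- cells (933 ± 47.3). All 3 Aif1-/- libraries lay under all 3 WT libraries. The log2 fold change was −0.39 (SE 0.07, 95% interval −0.55 to −0.22, edgeR adjusted p = 0.00380). The summed counts in Aif1-/- cells, scaled to library size, were 76.8% of those in WT. Svil passed the threshold in each of the 13 alternative fits, with adjusted p between 0.000279 and 0.0391.

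Thus 1 of the 5 tested members other than Vill was called, Svil in the lower direction, where 10.5% of all tested genes were lower and 8.04% higher. The number is too small to set against those shares.

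Gelsolin (Gsn, ENSMUSG00000026879, chr2:35256380-35307892, + strand), the calcium-activated severing and capping protein that names the family, was abundant in both genotypes. Normalized counts were 11265, 9977 and 14669 in WT (11970 ± 2424) and 13496, 14165 and 13961 in Aif1-/- cells (13874 ± 343). The Aif1-/- libraries lay between the second and the highest WT value, so the genotypes overlapped. The log2 fold change was 0.21 (SE 0.12, 95% interval −0.06 to 0.48, edgeR adjusted p = 0.292).

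The highest WT value was that of replicate 3, the library with the lowest percentage outside genes. Without it the WT mean of Gsn was 10621, the log2 fold change 0.39 and the edgeR adjusted p 0.000362, and 13.6% of all tested genes were then called higher. When the percentage outside genes was fitted as a covariate, the log2 fold change was 0.29 (adjusted p = 0.000451), where 15.4% of all genes were higher. Gsn shares 1621 bases with Gm43128, an unconfirmed transcript on the same strand that had 545 counts in all.

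CapG (Capg, ENSMUSG00000056737, chr6:72544391-72562983, + strand) caps barbed ends without severing filaments. Its normalized counts were 18113, 15321 and 20319 in WT (17918 ± 2505) and 15076, 14352 and 14435 in Aif1-/- cells (14621 ± 396). The Aif1-/- libraries were lower in all 9 pairings with WT, and WT replicate 2 (15321) lay nearest to the highest of them (15076). The log2 fold change of −0.29 (SE 0.10, 95% interval −0.51 to −0.08) just missed the threshold (edgeR adjusted p = 0.0598).

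Capg passed it in 5 of the 13 alternative fits. These were DESeq2 (adjusted p = 0.0299), upper-quartile size factors (0.0349), all genes kept whatever their counts (0.0187), the covariate (0.000285) and the fit without WT replicate 2 (log2 fold change −0.39, adjusted p = 0.00215). Of all tested genes, 8.77%, 10.6%, 7.17%, 16.3% and 12.3% were called lower in the same order. Without WT replicate 3 the log2 fold change was −0.19 (adjusted p = 0.0605).

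Flightless I (Flii, ENSMUSG00000002812, chr11:60714123-60727263, − strand) joins the gelsolin-like repeats to leucine-rich repeats. Normalized counts were 5946, 5697 and 6884 in WT (6175.5 ± 626) and 5484, 5660 and 5529 in Aif1-/- cells (5558 ± 91.6). The libraries of the genotypes were apart only by the gap between 5660 and 5697. With a log2 fold change of −0.15 (SE 0.08, 95% interval −0.33 to 0.02), Flii was not called (edgeR adjusted p = 0.242), and without WT replicate 3 the value was −0.06. It shares 64 bases with Llgl1 on the other strand.

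Scinderin (Scin, ENSMUSG00000002565, chr12:40059769-40134228, − strand), a severing protein of secretory cells and megakaryocytes, had 0 counts in all 6 libraries. At 3 counts per library this allows a level of up to 0.0360 to 0.0567 RPKM. Megakaryocyte and platelet genes were present in part. Of 6 listed, 5 were tested. Of those, 3 (Pf4, Ppbp and Treml1) were called higher in Aif1-/- cells, where 8.04% of all tested genes were higher. Itga2b (44 raw counts in WT and 24 in Aif1-/- cells) and Gp1ba (146 and 118) were not called. Gp9 (0 and 2) was not tested. The summed level was 111 to 116 RPKM in Aif1-/- and 52.2 to 60.1 in WT libraries, mostly Pf4 (means of 103 and 52.7). Fibroblast and smooth muscle genes, the other known site of Gsn and Svil, summed to at most 0.137 in any library, with Dcn and Lum at 0. The part of any of these markers in the members' values was not tested.

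**Figure D2:**
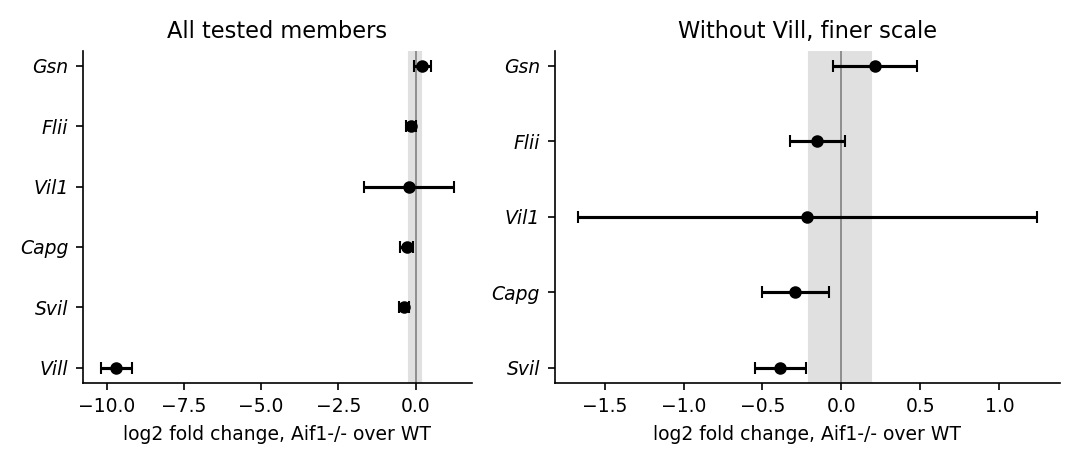
Log2 fold change (Aif1-/- over WT) of the 6 tested members with 95% intervals, on the scale of Vill and on a finer scale without it. The gray band holds the middle of all tested genes, from −0.21 to 0.18, and Vill lies at −9.68 while the other 5 members lie between −0.39 and 0.21.

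Counting only libraries that do not overlap, 4 of the 6 tested members were lower in all Aif1-/- libraries (Vill, Svil, Capg and Flii) and 0 were higher, where 19.1% of all tested genes were lower and 16.5% higher in this sense. The family was chosen on this comparison, and the count is given as a description.

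Compared per length of exon, the members spanned more than 3 decades. In WT cells Capg stood first at 302 ± 42.2 RPKM (SD, n = 3), followed by Gsn at 161 ± 32.7, Flii at 52.2 ± 5.29, Vill at 21.9 ± 1.56 and Svil at 4.86 ± 0.0412. The ranges of these neighbours did not overlap. Vil1 (0.141 ± 0.122) and Avil (0.133 ± 0.0923) did, and Scin stood at 0.

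Capg was above 99.3% of all tested genes in WT, Gsn above 98.6%, Flii above 94.3% and Svil above 48.5%. With the longest transcript in place of all exons, the level of Capg was 545 and that of Gsn 192, so the level of Capg depends on the length used while the order was the same. In Aif1-/- cells the order was Capg (246 ± 6.67), Gsn (187 ± 4.63), Flii (46.9 ± 0.774), Svil (3.71 ± 0.188), Vil1, Avil and then Vill (0.0228 ± 0.0215), whose range touched that of Scin.

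The summed level of the 8 members was 533, 467 and 627 in WT and 486, 484 and 482 in Aif1-/- libraries. The WT libraries lay on both sides of the Aif1-/- libraries, which were close together. Vill made up 4.08% of the family sum in WT and 0.00469% in Aif1-/- cells. Gsn made up 29.6% ± 1.68 and 38.6% ± 1.07, and Capg 55.7% ± 1.36 and 50.8% ± 1.22. Without Vill the sum was 520.3 ± 79.0 in WT and 484.0 ± 2.30 in Aif1-/- cells.

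**Figure D3:**
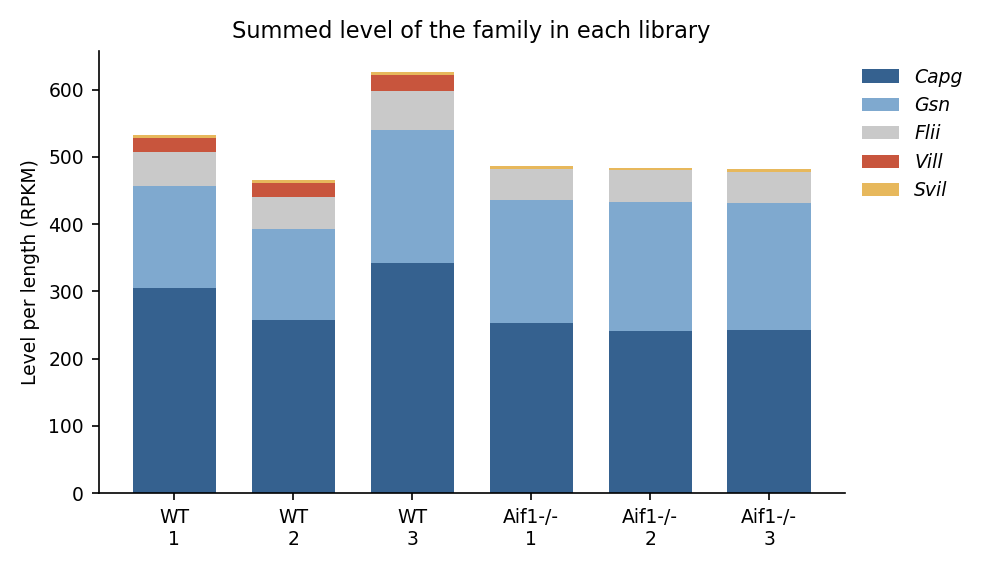
Stacked levels (RPKM) of Capg, Gsn, Flii, Vill and Svil in each of the 3 WT and 3 Aif1-/- libraries. The WT totals range from 467 to 627 and the Aif1-/- totals from 482 to 486, and the Vill band is seen in the WT libraries alone.

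The ratio of Capg to Gsn per length, which does not depend on how libraries are scaled, was 2.01, 1.92 and 1.73 in WT and 1.39, 1.26 and 1.29 in Aif1-/- libraries. Its means were 1.88 ± 0.142 and 1.32 ± 0.0686, with no overlap between the genotypes. The ratio was chosen after the values were seen and carries no test. It shows unequal change of these transcripts and not which of them changed.

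Genes that work with or beside the family were followed in 9 lists with 57 genes, of which 46 were tested. Of those, 11 were higher and 5 lower in Aif1-/- cells, or 34.8%, beside 18.6% of all tested genes, and the median log2 fold change was 0.11 against −0.0035 over all genes. The lists were chosen with earlier results of these data known, so these shares are a description and nothing is read from their gap. The count depended on single libraries: 22 genes were higher without WT replicate 3 and 5 without Aif1-/- replicate 1 or 2, where over all tested genes 2404, 874 and 899 were higher against 1399 with all libraries. The lower genes numbered 3 to 8 as each library was left out, where over all tested genes 1166 to 2485 were lower against 1832 with all libraries.

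Proteins that cap filament ends or act on capping had the widest range, with 3 of 9 higher and 2 lower. Of all tested genes 8.04% were higher and 10.5% lower, and single lists are too short to set against those shares. Carmil1, which takes capping protein off barbed ends, had 36.2, 28.0 and 29.6 normalized counts in WT and 514.9, 479 and 552 in Aif1-/- cells (log2 fold change 4.05, SE 0.15, edgeR adjusted p = 5.36e-08). Tropomodulin 1 (Tmod1), which caps the slow-growing pointed end, fell from 567, 605 and 576 to 153, 164 and 157 (log2 fold change −1.89, SE 0.10, adjusted p = 8.08e-07). The shared capping protein subunit Capzb rose by 0.47 on the log2 scale (adjusted p = 0.000685).

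Actin genes themselves were in part higher, with 2 of 4 tested. Actb, the main cytoplasmic actin, had 124910, 111540 and 143790 normalized counts in WT and 170870, 175290 and 176300 in Aif1-/- cells (log2 fold change 0.46, edgeR adjusted p = 0.00515). Acta1, the skeletal muscle actin, had 37.3 to 47.3 and 69.3 to 83.0 (log2 fold change 0.83, adjusted p = 0.0258). Actin genes have near-identical coding sequences, and Acta1 counts could include reads of Actb. Actg1 was at 0.08 (adjusted p = 0.688), Actc1 had 0 counts and Actg2 18 raw counts in WT and 9 in Aif1-/- cells.

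Among 4 monomer binders, thymosin beta 4 (Tmsb4x), which holds actin monomers in reserve, was the 1 called. It had 30904, 23558 and 27100 normalized counts in WT and 49443, 50050 and 46096 in Aif1-/- cells (log2 fold change 0.84, SE 0.10, edgeR adjusted p = 0.000143). The profilins Pfn1 (0.35, adjusted p = 0.0782) and Pfn2 (0.63, adjusted p = 0.212) did not pass.

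Of 10 tested severing and disassembly factors other than the family, destrin (Dstn) and Wdr1, a cofactor of cofilin, were higher, by 0.26 (adjusted p = 0.0391) and 0.22 (adjusted p = 0.0474) on the log2 scale, and none was lower. Cap1, which recycles actin monomers, was at 0.27 (adjusted p = 0.0516). Cap2 had 0 counts.

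The headpiece found in villins also occurs in dematin and the abLIM proteins. Ablim1 rose from 24.1, 40.7 and 35.5 normalized counts to 151, 140 and 165 (log2 fold change 2.17, SE 0.23, edgeR adjusted p = 7.25e-05). Dmtn had 28 raw counts in WT and 16 in Aif1-/- cells, and Ablim3 had 0 and 1.

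Bundling and brush border proteins gave 0 calls among 6 tested genes, with a median log2 fold change of 0.13. L-plastin (Lcp1), the leukocyte bundler, was at 0.15 (adjusted p = 0.219), ezrin (Ezr), which ties actin to the membrane, at 0.22 (adjusted p = 0.0648) and alpha-actinin 4 (Actn4) at −0.19 (adjusted p = 0.196). Among the brush border partners of villin, Ezr had 6052 and 5540 raw counts in WT and Aif1-/- cells. Others were scarce, with 3 and 2 raw counts of Pls1, 2 and 26 of Espn, and 52 and 22 of Myo1a, which was not called. Fascin (Fscn1) had 40 and 6, and Aif1l, the paralog of Aif1, had 4 and 2.

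Enzymes of PIP2, the lipid that releases family members from actin, and calmodulins made up a list of 9. Pip5k1b, a kinase that makes PIP2, had 260, 268 and 203.5 normalized counts in WT and 37.1, 49.3 and 65.8 in Aif1-/- cells (log2 fold change −2.29, SE 0.22, edgeR adjusted p = 4.78e-05). Pip5k1a was lower by less (−0.25, adjusted p = 0.0278). Pip5k1c was at −0.09 (adjusted p = 0.599) and was not called. Among these kinases it had the highest level, 51.3 RPKM in WT against 12.3 for Pip5k1a and 2.57 for Pip5k1b. Of the lipases that cleave PIP2, Plcd1 was lower (−1.14, adjusted p = 0.000770) and Plcg2 higher (0.25, adjusted p = 0.0266). Plcd1 lies beside Vill on the other strand, and whether the counting separated their reads was not tested. Calm2 and Calm3, which encode the calcium sensor calmodulin, were at 0.02 (adjusted p = 0.919) and 0.03 (adjusted p = 0.882) and were not called.

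Of the partners that bind the leucine-rich repeats of Flii, Lrrfip1 was higher (0.25, SE 0.06, edgeR adjusted p = 0.0163) and Lrrfip2 was at 0.09 (adjusted p = 0.448). For removal of actin outside cells, Gc, the plasma partner of gelsolin, had 0 counts, and Clec9a, a receptor for exposed filaments, had 28 and 20 raw counts.

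**Figure D4:**
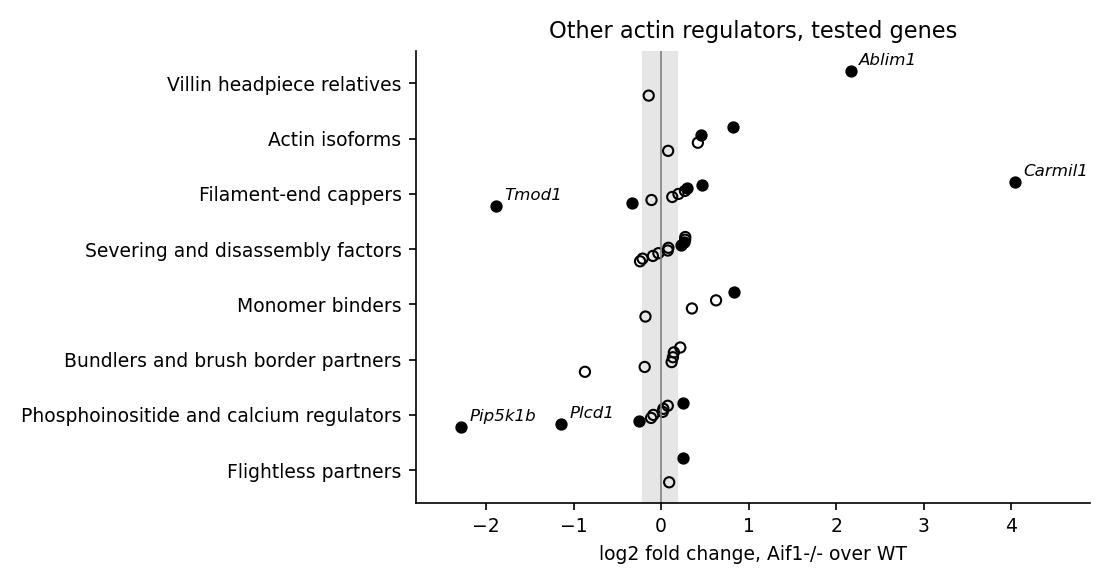
Log2 fold change (Aif1-/- over WT) of the 46 tested genes in the lists of other actin regulators, 1 row per list. Filled points passed an edgeR adjusted p of 0.05, open points did not, and the gray band holds the middle of all tested genes; Carmil1 at 4.05 and Pip5k1b at −2.29 are the farthest points.

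Around Vill on chromosome 9, 4 protein-coding genes within 100 kb were tested. Plcd1, the lipase of the PIP2 list, lies end to end with Vill on the other strand, with 1 base between their annotated ends. It had 192, 257 and 232 normalized counts in WT (227 ± 32.8) and 115, 95.9 and 96.1 in Aif1-/- cells (102 ± 10.9), which do not overlap (log2 fold change −1.14, SE 0.17). It was called lower in each of the 13 alternative fits. Whether the counting separated reads of Vill from those of Plcd1 was not tested.

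On the other side Ctdspl, a phosphatase gene that ends 8779 bases before Vill on the same strand, had 899, 844 and 990 normalized counts in WT and 834, 832 and 777 in Aif1-/- cells (log2 fold change −0.16, edgeR adjusted p = 0.262). Dlec1 was scarce, with 6 to 12 raw counts in WT and 6 to 14 in Aif1-/- libraries (log2 fold change 0.68, adjusted p = 0.440), and Acaa1b, a peroxisomal thiolase, was at −0.09 (adjusted p = 0.861). Thus 1 of the 4 was lower, beside 10.5% of all tested genes. With 250 kb in place of 100 kb, 1 gene was higher, the integrin alpha 9 gene Itga9 (log2 fold change 1.31), 151774 bases from Vill.

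**Figure D5:**
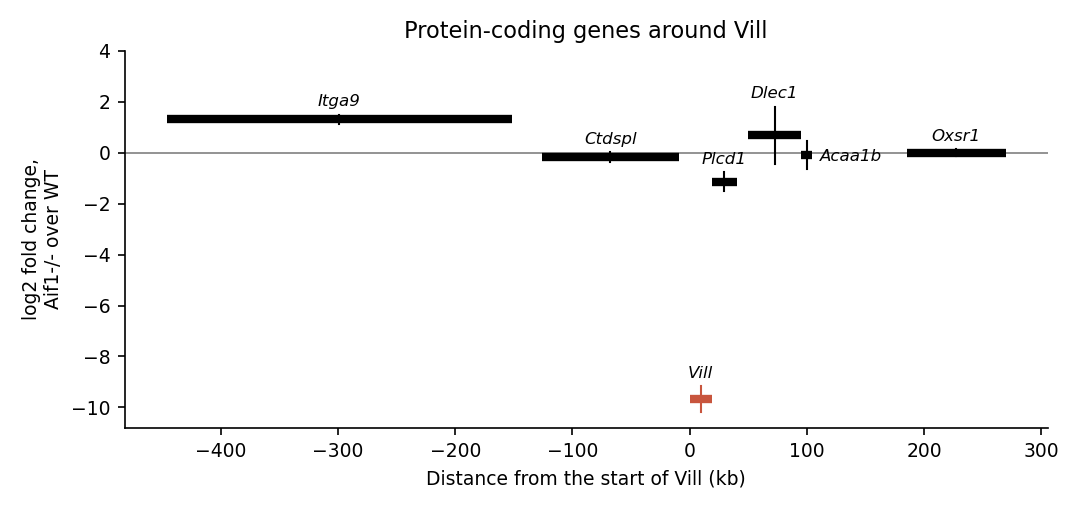
Log2 fold change (Aif1-/- over WT) of tested protein-coding genes within 250 kb of Vill against their distance from its start in kb. Thick bars span each gene and thin lines are 95% intervals; Vill stands at −9.68, Plcd1 beside it at −1.14 and the other genes between −0.16 and 1.31.

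Genes whose log2 counts scaled to library size over the 6 libraries were most like those of Vill were Itgb3 (Pearson r = 0.99931), Cspg4 (0.9991), Mitf (0.99891), Nod1 (0.99877) and Rsad2 (0.99842), among 12131 genes compared. The 6 points share 2 genotypes, so the likeness is a description of 3 high and 3 low libraries, and 154 genes had r above 0.99. Only 1 of these 5 genes stayed among the first 5 with a prior count of 0.5 in place of 2, and 1 with Spearman correlation, where 159 genes tied. Itgb3, an integrin chain, fell from 1684 ± 68.4 to 230 ± 37.7 normalized counts, and Cspg4, a surface proteoglycan, from 5077 ± 633 to 5.60 ± 5.27. Mitf, a transcription factor of osteoclasts and macrophages, changed by only −0.14 on the log2 scale, so a high r here does not follow the size of the change.

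The other members had other nearest genes: H2-Q10, Gdpd1 and Hykk for Svil (r = 0.99753, 0.99659 and 0.9962), Unc119b, Chmp4b and Bloc1s6 for Capg, Sec16a, Rab11b and Lipt2 for Gsn, and Ankrd13a, Rnpepl1 and Fadd for Flii. For Vil1, with its few counts, Wars2, Tmem70 and Miip came first, at r = 0.97792 and less.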

How the data were processed

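RNA-seq was measured in 6 libraries of immortalized BMMs, grouped by genotype and replicate from their labels. According to the submitters' processing notes and the study's methods, the authors trimmed the single-end reads (Trim Galore 0.5), aligned them with TopHat2 2.0.13 to GRCm38, keeping a single location for each read, and counted them per Ensembl gene (HTSeq 0.6.1p1). HTSeq ran with its defaults, which count by strand. The deposited values are raw counts per gene. Reads outside genes or assigned ambiguously (4.55% to 7.15%) stayed out of library sizes and tests.

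The genotypes were compared by the quasi-likelihood test of edgeR 4.0.16, in R 4.3.3 with limma 3.58.1, over all 17406 genes that passed its default filter, with TMM scaling and Benjamini-Hochberg adjustment over all of them (threshold 0.05). The standard error is the log2 fold change divided by the root of the F value. To normalize, each count was divided by its TMM-scaled library size and multiplied by the mean of those sizes. Levels per length (RPKM) use the same scaling, divided by the kilobases of the union of annotated exons. Symbols, coordinates and exons came from GENCODE M21 (GRCm38), which matched 47310 of 47729 genes. Promoter windows came from RefSeq (GRCm38.p6) and were searched for 7 members, since windows on chromosome 18, which holds Svil, were left out. The edgeR fit was tested on simulated counts with known fold changes. Intervals of log2 fold changes came from the edgeR fit and include the spread between the libraries. With 17707986 to 29314253 counts in genes per library, the exact intervals on summed counts and the floors of 3 counts cover counting error only.

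Alternatives were DESeq2 1.42.0, other size factors, other filters, the replicate number as a block, the percentage outside genes as a covariate, each library left out, other distances, lengths, prior counts and a rank correlation. Recomputing the neighbours under the same fits was added after seeing the data. The genes named were all members, Aif1, up to 3 of each list with the smallest adjusted p and the untested listed genes, the tested neighbours, and the genes most like each member where the mean log2 CPM reached 2 (prior count 2). Some further listed genes without a call were named after their values were seen. The members and lists were chosen with earlier results of these data known. Some listed genes are not reported here.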

Additional observations from a re-analysis of the deposited data

How the results depend on the processing

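Svil was called lower in all 13 alternative fits. Vill was also lower in each, which is a description, since the family was chosen on that difference in these libraries. With the percentage outside genes fitted as a covariate, 2678 genes were higher and 2839 lower, and of the members other than Vill 1 (Gsn) was higher and 2 (Svil and Capg) lower, with 23 listed actin regulators higher and 8 lower. The members lower numbered 2 also with DESeq2, with upper-quartile size factors and with no filter. Leaving out each library in turn gave 874 to 2404 genes higher and 1166 to 2485 lower, 0 to 1 members higher and 1 to 2 lower, and 5 to 22 listed genes higher and 3 to 8 lower. Same-numbered libraries of the genotypes did not deviate together (correlations of 0.060, −0.075 and −0.086), and not every library correlated best with its own number. The fit with the replicate number as a block called 3 listed genes lower and moved the log2 fold change of Vil1 from −0.22 to 0.0047, and with each library left out that of Vil1 ran from −0.64 to 0.012, the highest without Aif1-/- replicate 3 (without WT replicate 2 it did not pass the filter). A distance of 250 kb added 1 higher neighbour of Vill. With the longest transcript as length, WT levels were 24.8 for Vill, 545 for Capg, 6.57 for Svil and 64.7 for Flii. Of the 5 genes most like Vill, 1 was kept with a prior count of 0.5 and 1 with Spearman correlation, where 159 genes tied. The causes of these shifts were not tested. At this depth, differences of Vil1 and Avil, with under 30 counts per library, could not be resolved.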
